A study of Mus musculus with 41 samples.

Results

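Labeled and post-tamoxifen regulatory T (Treg) cells of control mice were compared in 10 of the 41 RNA-seq libraries of the series, 5 of each kind, chosen by the sorted population and genotype given in the labels. The mice were Uhrf1+/+ Foxp3GFP-CreERT2 Rosa26SorCAG-tdTomato, with both Uhrf1 copies intact, and were labelled as 8 weeks old, with tamoxifen chow for 2 weeks and then standard chow for 4 weeks. Both groups shared this genotype and feeding. Each group had 5 biological replicates, numbered 1 to 5. In these mice the Foxp3 locus drives both GFP and a tamoxifen-dependent Cre, and Cre switches on tdTomato for good. Labeled cells were Foxp3-GFP+tdTomato+, so they had expressed Foxp3 during the tamoxifen weeks and still did at collection. Post-tamoxifen cells were Foxp3-GFP+tdTomato-. They may have begun to express Foxp3 after tamoxifen or may have escaped Cre, and the sort does not tell these apart. Ex-Foxp3 cells (Foxp3-GFP-tdTomato+, 5 libraries) of the same mice and the same populations of Uhrf1fl/fl mice (6 libraries each) are used below as points of reference.

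Foxp3 is the transcription factor that defines Treg cells, the CD4+ T cells that restrain other immune cells. Resting Treg cells keep a programme shared with naive T cells, built on factors such as Lef1, Satb1 and Bach2. Effector Treg cells instead carry receptors such as ST2, KLRG1, TIGIT and ICOS and factors such as Gata3, Maf and Rora. New Treg cells keep leaving the thymus in adult mice, and young emigrants still hold transcripts of thymic development.

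The proximal promoters of 4 genes with large differences described below show how differently built these genes are at their starts. Each is the 250 bases before the annotated start in RefSeq (GRCm38.p6), written 5′ to 3′ on the gene's strand. Il1rl1 and Tigit were higher in labeled cells, and Satb1 and Myb were lower. Capitals mark matches, on either strand, to any of 6 motifs. Those searched were TGANTCA, the element that AP-1 factors bind, and TGTGGT, the core recognised by Runx factors. They also included CTTTGA, which TCF and LEF factors prefer, and GTAAACA, a letter run of forkhead factors such as Foxp3. The last were NGATAA, recognised by the GATA family, and GGGCGG, the GC box of many housekeeping promoters. A match is a run of letters and not a bound site.
Il1rl1, chr1:40429320-40429569, plus strand: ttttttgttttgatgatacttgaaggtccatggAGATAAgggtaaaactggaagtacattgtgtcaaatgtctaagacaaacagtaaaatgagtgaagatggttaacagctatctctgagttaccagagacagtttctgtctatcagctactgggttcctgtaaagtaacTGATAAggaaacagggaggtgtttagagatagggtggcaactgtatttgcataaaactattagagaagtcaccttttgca
Tigit, chr16:43664185-43664434, minus strand: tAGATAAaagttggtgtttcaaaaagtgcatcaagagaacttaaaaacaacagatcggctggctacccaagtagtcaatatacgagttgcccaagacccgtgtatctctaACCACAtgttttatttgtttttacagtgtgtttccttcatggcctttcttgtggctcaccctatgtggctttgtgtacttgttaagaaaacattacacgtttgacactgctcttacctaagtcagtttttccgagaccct
Satb1, chr17:51833291-51833540, minus strand: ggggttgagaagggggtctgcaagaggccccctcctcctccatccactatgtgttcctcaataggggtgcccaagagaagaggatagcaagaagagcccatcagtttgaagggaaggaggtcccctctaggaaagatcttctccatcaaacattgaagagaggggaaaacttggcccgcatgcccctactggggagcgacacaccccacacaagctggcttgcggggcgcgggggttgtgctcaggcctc
Myb, chr10:21160985-21161234, minus strand: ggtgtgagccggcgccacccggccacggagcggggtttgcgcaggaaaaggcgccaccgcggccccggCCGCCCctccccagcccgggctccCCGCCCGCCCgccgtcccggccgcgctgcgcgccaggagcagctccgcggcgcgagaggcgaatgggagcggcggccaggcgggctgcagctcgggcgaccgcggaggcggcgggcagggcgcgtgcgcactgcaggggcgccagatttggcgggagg
The Il1rl1 window held 2 GATA matches, the Tigit window held 1 Runx and 1 GATA match, the Myb window held 3 GC boxes, and the Satb1 window held none of the 6. G and C made up 37.6% of the Il1rl1 window, 40% of the Tigit window, 58% of the Satb1 window and 81.2% of the Myb window, against a median of 60.4% over the 6956 tested genes with such a promoter. A GATA match was found in 13.8% of those 6956 promoters, in 14.5% of the 399 promoters of genes called higher in labeled cells once post-tamoxifen library 2 was left out, and in 8.46% of the 260 promoters of genes called lower. Both called sets leave out markers of other cell types. The lower set also leaves out genes called lower with all libraries that moved with the myeloid marker sum described below, so the 2 sets were filtered differently. For Runx the shares were 10.4%, 11.3% and 4.62%, for TCF/LEF 10.4%, 9.77% and 7.31%, for AP-1 3.67%, 5.76% and 3.85%, for forkhead 2.01%, 1.5% and 1.92%, and for the GC box 62%, 62.7% and 70%. The median content of G and C was 61.2% in the 399 promoters and 64% in the 260, so the low values of Il1rl1 and Tigit are not those of the higher set. These shares are a description, and their differences were not tested.

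Depth ran from 1153730 to 2609699 counts in the labeled libraries and from 781437 to 3153563 in the post-tamoxifen libraries, with post-tamoxifen library 1 the shallowest. Levels below are CPM, counts scaled to a common library total, listed from replicate 1 to replicate 5. They are not scaled by gene length, so they compare libraries and not genes. The labeled libraries lay between 388 and 428 CPM for Foxp3, and the post-tamoxifen libraries held 365, 123, 537, 439 and 441 CPM. Post-tamoxifen library 2 lay in the range of the ex-Foxp3 libraries (79.4 to 151 CPM), while the other 4 lay nearer the labeled cells. Over all 9921 genes tested, log2 levels of that library correlated at 0.984 with the mean of the ex-Foxp3 libraries and at 0.976 with the labeled mean. The value was 0.945 with the mean of the other post-tamoxifen libraries, whose own values with that mean, each left out of it, were 0.917 to 0.973. Post-tamoxifen library 2 goes against its sort label, so results below come from fits with and without it. For some genes the value of only 1 of these fits is given. Every gene named below as called with all libraries was also called without it. Libraries 2 and 3 of both groups held 318 to 455 CPM of 4 Y-linked genes (Ddx3y, Uty, Kdm5d and Eif2s3y), and the other 6 held 0 to 2.33 CPM.

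**Figure D1:**
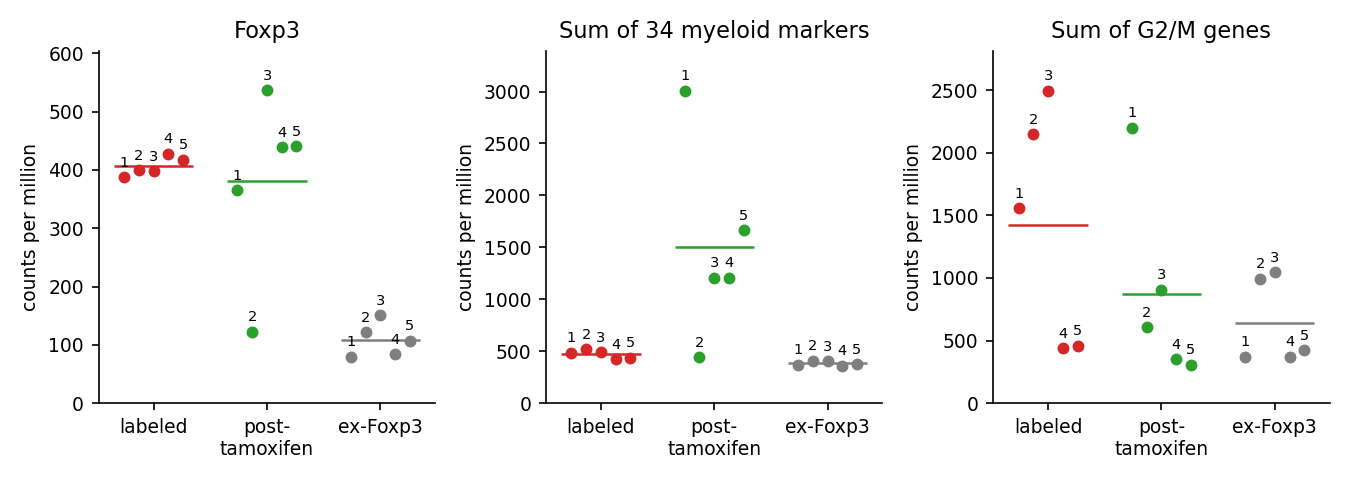
Foxp3, the sum of 34 myeloid markers and the sum of the G2/M genes in CPM (linear axes from 0) for each control library. Points carry the replicate number and lines are group means; post-tamoxifen library 2 lies with the ex-Foxp3 libraries for Foxp3 at 123 CPM, and within the labeled group the G2/M sum is highest in libraries 1 to 3.

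Labeled cells had higher transcripts of effector Treg receptors and lower transcripts of the naive T cell programme, while Foxp3 itself did not pass the test. With all libraries, edgeR's quasi-likelihood test called 787 of 9921 genes at a Benjamini-Hochberg adjusted p under 0.05, 7.93% of those tested. Of these, 395 (3.98%) were higher and 392 (3.95%) were lower in labeled cells. Without post-tamoxifen library 2 the test called 1114 of 10020 genes (11.1%), 599 of them higher (5.98%) and 515 lower (5.14%). Both fits called 755 genes, all of them in the same direction, and the 787 calls lost 32 when that library was left out. Log2 fold changes below are labeled minus post-tamoxifen, ± SE. In bulk samples such as these, fewer cells of a type and less RNA per cell cannot be told apart. With the libraries numbered 1 to 3 alone, which include both post-tamoxifen libraries that stand apart, 18 genes were called, and with those numbered 4 and 5 alone 249 were. Every gene below that was called with all libraries kept its direction in both subsets. In the first, the only ones of them still called were Als2cl, Gbp3, Myb, Myo10, Pdk1, Tnfrsf1b and Tnfrsf8. In the second, 23 of them lost the call: Ikzf2, Entpd1, Cd83, Tnfrsf8, Itgae, Gata3, Ahr, Icos, Batf, Satb1, Actn1, Adcy6, Pde3b, Themis, Il12rb1, Eomes, Tet1, Gbp1, Ly6e, Ccr4, Apoe, H2-Ab1 and Lrp1. When the spread was estimated from these 10 libraries alone, 11 lost it: Nrp1, Klrg1, Tigit, Rora, Maf, Ttn, Naip6, Ttc39c, Abcb1a, Apoe and H2-Ab1. Without numbers 2 and 3 it was lost by Ikzf2, Batf, Eomes, Tet1, Ly6e and Ccr4.

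Foxp3 in labeled libraries was 388, 399.7, 397, 428 and 418 CPM, and its log2 difference was 0.09 ± 0.37 with all libraries (adjusted p = 0.93) and -0.12 ± 0.35 without post-tamoxifen library 2 (adjusted p = 0.89). Il2ra, the alpha chain of the IL-2 receptor, held 547, 643, 558, 514 and 468 CPM in labeled and 544, 214, 944, 824 and 722 CPM in post-tamoxifen libraries. Libraries 3 to 5 of the post-tamoxifen group were above every labeled library, and the difference of -0.46 ± 0.17 without library 2 did not pass (adjusted p = 0.073). Il2rb, the beta chain, differed by 0.08 ± 0.17 (adjusted p = 0.86). Of 31 Treg core genes tested, 12 were called higher and 0 lower, with a median log2 difference of 0.58 against 0.0028 over all genes tested. The 12 include Klrg1, Itgae and Icos, which are described below beside the effector Treg genes, and leave out Foxp3, Il2ra and Il2rb. Without library 2 the counts were 11 higher and 2 lower, and the median was 0.47 against 0.023. The 2 lower members, named after their values were seen, were Gpr83, an orphan receptor of Treg cells (-1.48 ± 0.36, adjusted p = 0.0069), and Ikzf3, the factor Aiolos (-0.68 ± 0.18, adjusted p = 0.012).

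Among the Treg core genes that rose, Nrp1, the surface receptor neuropilin 1, held 622, 695, 727, 621 and 723 CPM in labeled and 159, 545, 167, 199.83 and 255 CPM in post-tamoxifen libraries. Every labeled library was above every post-tamoxifen one, and library 2 was the nearest. The difference was 1.33 ± 0.25 (adjusted p = 0.0013) and 1.80 ± 0.19 without library 2 (adjusted p = 1.6e-07). Tnfrsf1b, which encodes TNF receptor 2, held 258, 285, 341, 305 and 294 CPM against 62.1, 178, 135, 149 and 177 CPM, with no overlap and a difference of 1.04 ± 0.16 (adjusted p = 1.7e-04). The pair of ectoenzymes that turn extracellular ATP into adenosine rose together. Nt5e (CD73) ran from 241 to 335 CPM in labeled and 113 to 165 CPM in post-tamoxifen libraries other than 2 (1.11 ± 0.17 without library 2, adjusted p = 2.4e-05, and 0.95 ± 0.17 with it, adjusted p = 6.4e-04). Entpd1 (CD39) ran from 40.4 to 67.4 and from 19.8 to 29.8 CPM (1.25 ± 0.21 without library 2, adjusted p = 3.8e-05, and 0.98 ± 0.20 with it, adjusted p = 0.0016).

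Cd83, a surface protein of activated lymphocytes, held 82.9 to 120.5 CPM in labeled libraries and 13.9, 46.8, 34.9, 39.7 and 41.7 CPM in the post-tamoxifen ones (1.49 ± 0.28, adjusted p = 0.0014, and 1.62 ± 0.31 without library 2). Ikzf2, which encodes Helios, a factor of thymus-derived Treg cells, was named after its values were seen. It held 1518, 1232, 1344, 1593 and 1306 CPM against 483, 930.4, 819.7, 791 and 868 CPM, again without overlap (0.84 ± 0.23, adjusted p = 0.023, and 0.93 ± 0.25 without library 2). That call was lost without labeled library 4 (0.79), without post-tamoxifen library 1 (0.71), without post-tamoxifen libraries 1 and 2 (0.78), and with the myeloid marker sum as a term in the fit (0.38, adjusted p = 0.48).

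Effector Treg genes had the largest median difference of the T cell lists, with and without library 2. The lists were chosen with earlier results of these data known, so this ranking is a description. Of 34 tested, 16 were called higher and 0 lower, with a median of 1.02. Without library 2, 19 were higher and 0 lower, with a median of 1.42. Il1rl1, the receptor for IL-33 whose promoter is printed above, held 146, 228, 229.6, 148 and 161 CPM in labeled and 12.7, 62.5, 3.97, 12.6 and 15.1 CPM in post-tamoxifen libraries. All 5 labeled libraries exceeded all 5 post-tamoxifen ones, and library 2 stood well above the other 4. The difference was 2.99 ± 0.50 (adjusted p = 5.4e-04) with it and 4.10 ± 0.52 (adjusted p = 4.1e-06) without it. Klrg1, a lectin-like inhibitory receptor of terminal effector cells, held 49.1, 46, 29.8, 41.2 and 32.3 CPM against 0, 15.9, 0, 0.361 and 2.75 CPM. It was near 0 in the 4 post-tamoxifen libraries other than 2, and its difference was 3.13 ± 0.69 (adjusted p = 0.0042) and 5.47 ± 0.78 without library 2 (adjusted p = 1.4e-05).

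Tigit, an inhibitory receptor that competes for CD155, held 69.8, 90.8, 105, 112 and 116 CPM in labeled and 0, 53, 11.1, 15.5 and 18.3 CPM in post-tamoxifen libraries. The groups did not overlap, and the difference was 2.14 ± 0.39 with all libraries (adjusted p = 0.0011) and 2.94 ± 0.38 without library 2 (adjusted p = 5.7e-06). Fgl2, a secreted suppressive ligand, held 83.8, 100.01, 76.2, 78.1 and 68 CPM against 13.9, 49.1, 6.35, 18.1 and 14.2 CPM (1.93 ± 0.34, adjusted p = 7.5e-04, and 2.66 ± 0.30 without library 2). Itgae (CD103), an integrin that binds epithelial E-cadherin, held 152, 174, 224, 144 and 169 CPM against 21.6, 58.6, 12.7, 12.3 and 26.6 CPM (2.66 ± 0.51, adjusted p = 0.0016, and 3.31 ± 0.56 without library 2). For both genes the highest post-tamoxifen library was again number 2. Icos, a costimulatory receptor, ran from 193 to 256 CPM in labeled libraries and from 65.9 to 87.9 CPM in the post-tamoxifen libraries other than 2, where it was 155 CPM (1.19 ± 0.24, adjusted p = 0.0025, and 1.49 ± 0.24 without library 2). Tnfrsf8 (CD30), a TNF receptor of activated T cells, held 29.8, 26.1, 15.3, 19.6 and 13.1 CPM against 0, 6.51, 1.59, 3.97 and 4.58 CPM (2.47 ± 0.42, adjusted p = 2.9e-04, and 2.85 ± 0.47 without library 2).

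**Figure D2:**
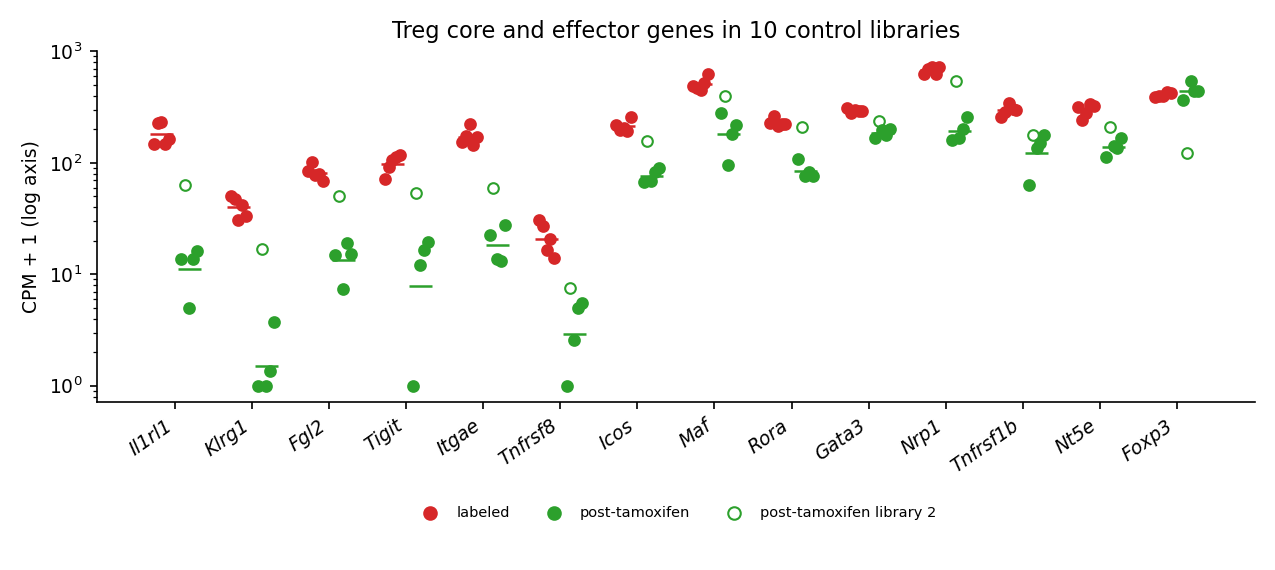
CPM + 1 on a log axis for 14 Treg genes in each of the 10 control libraries, labeled in red and post-tamoxifen in green, with post-tamoxifen library 2 as an open circle. Lines are geometric means without that library; it lies between the other green points and the red points for most genes and below both for Foxp3.

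Transcription factors of effector Treg cells were also higher in labeled cells. Maf held 483, 468, 448, 517 and 624 CPM in labeled and 280.3, 399, 95.2, 179 and 217 CPM in post-tamoxifen libraries, with no overlap (1.12 ± 0.25, adjusted p = 0.0043, and 1.45 ± 0.24 without library 2). Rora held 228, 262, 214, 222 and 222 CPM against 107, 209.5, 74.6, 80.9 and 75.1 CPM (1.06 ± 0.21, adjusted p = 0.0023, and 1.49 ± 0.16 without library 2). Gata3, which acts upstream of Il1rl1 in type 2 cells, held 308, 277, 299, 293 and 292 CPM against 166, 238, 198, 176 and 200.08 CPM (0.58 ± 0.13, adjusted p = 0.0028, and 0.68 ± 0.13 without library 2). Ahr, a ligand-activated factor, differed by 0.91 ± 0.22 (adjusted p = 0.0074) and Batf, an AP-1 partner, by 0.73 ± 0.18 (adjusted p = 0.0059). Batf was the one of these 5 whose groups overlapped, at 44.9 to 77.1 CPM against 35.5, 55, 29.4, 28.5 and 36.6 CPM.

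Helper cell lists also held genes called higher, some of them (Icos, Maf, Batf, Gata3, Il1rl1, Rora and Ahr) described above. Of 17 follicular helper genes, 6 were higher and 0 lower with all libraries (median 0.82) and likewise 6 and 0 without library 2 (median 1.04). Tox2, a factor of follicular helper cells, held 54, 44.8, 55.9, 82 and 121 CPM against 13.9, 33.2, 7.54, 15.2 and 19.2 CPM (1.92 ± 0.41, adjusted p = 0.0032, and 2.35 ± 0.45 without library 2). Sh2d1a, the adaptor SAP, held 52.5, 45.6, 67.2, 70.4 and 82 CPM against 22.8, 50.1, 27.8, 28.9 and 30.2 CPM (0.93 ± 0.21, adjusted p = 0.0036, and 1.19 ± 0.22 without library 2), with overlap through library 2. The Th2 list had 3 of 8 members higher and 0 lower, and the Th17 list 3 of 8 higher and 1 lower. Without library 2 these counts were 4 and 0, and 3 and 0. Of 20 Th1 and cytotoxic genes, 2 were higher and 2 lower, and without library 2, 5 and 2. The shares over all genes tested were 3.98% higher and 3.95% lower, and without library 2, 5.98% and 5.14%. Il12rb1, a chain of the IL-12 and IL-23 receptors, rose by 1.02 ± 0.21 (adjusted p = 0.0015). Eomes, a factor of cytotoxic and natural killer cells, held 1.51, 4.22, 1.8, 0.385 and 8.72 CPM in labeled and 38, 10.7, 14.7, 11.6 and 15.1 CPM in post-tamoxifen libraries (-2.52 ± 0.62, adjusted p = 0.0074, and -2.65 ± 0.64 without library 2), with its highest level in the post-tamoxifen library that also held the most myeloid transcripts. With the myeloid marker sum as a term its call was lost (-1.60, adjusted p = 0.14). Eomes is itself 1 of the 12 natural killer markers counted. Their sums were 1.17 to 8.67 CPM in labeled libraries and 10.5 to 39.7 CPM in post-tamoxifen libraries. In post-tamoxifen library 1 the sum was 39.7 CPM, Eomes alone was 38 CPM and 10 of the 12 markers had 0 counts. The sums thus largely count Eomes again, and a part of natural killer cells in the Eomes result was not tested.

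Homing genes split in both directions. Of 26 tested, 4 rose and 4 fell, and without library 2, 9 of 27 rose and 5 fell. Among all genes tested, 3.98% rose and 3.95% fell, and without library 2, 5.98% and 5.14%. Ccr4, a skin-homing chemokine receptor, ran from 85.4 to 119 CPM in labeled and held 78.6, 57.6, 24.2, 41.2 and 39.4 CPM in post-tamoxifen libraries (1.09 ± 0.27, adjusted p = 0.0096, and 1.23 ± 0.30 without library 2). The integrin chain Itgb1 held 1253, 1616, 1581, 1066 and 951 CPM against 673, 1709, 279, 476 and 477 CPM, and library 2 held more than any labeled library. Its difference passed without that library, at 1.47 ± 0.32 (adjusted p = 0.0025) against 0.84 ± 0.36 with it (adjusted p = 0.18). Itga4, the partner of Itgb1 in the integrin VLA-4, showed the same layout, with 2129.8 CPM in library 2 against 1023 to 1146 CPM in the other 4 and 1315 to 1773 CPM in labeled libraries (0.48 ± 0.12 without it, adjusted p = 0.0052, and 0.21 ± 0.15 with it, adjusted p = 0.48). The ex-Foxp3 libraries held 2138 to 2377 CPM of Itga4.

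Genes on none of the lists were also higher in labeled cells. Ttn, the gene of the muscle protein titin, which is also transcribed in lymphocytes, held 2889, 1302, 1705, 4780.1 and 3572 CPM in labeled and 375, 1665, 124, 359 and 352 CPM in post-tamoxifen libraries (2.30 ± 0.53, adjusted p = 0.0063, and 3.26 ± 0.50 without library 2). Without library 2 the groups did not overlap and the difference was 3.26 ± 0.50 (adjusted p = 5.3e-05). Naip5 and Naip6, near-identical sensors of bacterial flagellin whose reads the counting could split, differed by 2.33 ± 0.45 (adjusted p = 0.0016) and 1.70 ± 0.38 (adjusted p = 0.0045). Nav2, a neuronal navigator homolog, ran from 267 to 487 CPM against 57.9 to 92.9 CPM without library 2 (2.24 ± 0.31, adjusted p = 1.3e-05, and 1.81 ± 0.31 with it, adjusted p = 6.6e-04). Plcb4, a phospholipase C, ran from 96.2 to 169 against 21.4 to 31.6 CPM without library 2 (2.27 ± 0.23, adjusted p = 2.8e-08, and 1.75 ± 0.27 with it, adjusted p = 1.6e-04). Abcb1a, a drug efflux pump, held 111, 97.7, 99.3, 200.07 and 151 CPM against 11.4, 96.3, 10.7, 35.4 and 27.5 CPM (1.75 ± 0.40, adjusted p = 0.0058, and 2.55 ± 0.37 without library 2). With the myeloid term the calls of Ttn (1.76, adjusted p = 0.066), Naip6 (1.30, adjusted p = 0.081) and Abcb1a (1.27, adjusted p = 0.081) were lost. Arrdc4, an arrestin-domain protein, was tight in the 4 post-tamoxifen libraries other than 2, at 5.42 to 6.34 CPM against 28.4 to 42.9 CPM in labeled ones (2.68 ± 0.33 without library 2, adjusted p = 3.4e-07, and 1.78 ± 0.37 with it, adjusted p = 0.0023).

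Naive and central T cell genes moved the other way. Of 30 tested, 0 were called higher and 16 lower, with a median of -0.71. Without library 2, 0 were higher and 19 lower, with a median of -0.79. Satb1, a chromatin organiser of T cells whose promoter is printed above, held 286, 348, 299.6, 264 and 189 CPM in labeled and 755, 482, 1082, 950.0 and 934 CPM in post-tamoxifen libraries. All labeled libraries were below all post-tamoxifen ones, and library 2 was the lowest of the latter (-1.59 ± 0.33, adjusted p = 0.0027, and -1.72 ± 0.33 without library 2). Lef1, a TCF family factor, held 354, 381, 350.1, 326 and 386 CPM against 669.6, 575, 844, 849.6 and 739.9 CPM, with no overlap (-1.04 ± 0.17, adjusted p = 4.5e-04, and -1.10 ± 0.18 without library 2). Bach2, which represses effector genes in T cells, held 128, 141, 148, 130.4 and 97.7 CPM against 279, 160.1, 359, 340.0 and 346 CPM (-1.19 ± 0.24, adjusted p = 0.0024, and -1.34 ± 0.23 without library 2).

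Als2cl, a gene carried by naive T cell signatures, held 104, 102, 60.9, 100.03 and 95.1 CPM against 247, 188, 236, 269 and 291 CPM (-1.41 ± 0.19, adjusted p = 2.5e-05, and -1.48 ± 0.19 without library 2), and it stayed called in all 26 alternatives. Actn1, an actin cross-linker, held 196, 200.03, 230.1, 174 and 212 CPM against 522, 363, 533, 480.2 and 456 CPM (-1.22 ± 0.22, adjusted p = 8.0e-04, and -1.28 ± 0.22 without library 2). Among abundant members that did not pass with all libraries, Tcf7 differed by -0.51 ± 0.17 (adjusted p = 0.071), the IL-7 receptor gene Il7r by 0.22 ± 0.26 (adjusted p = 0.7) and the survival gene Bcl2 by -0.74 ± 0.24 (adjusted p = 0.057). Bcl2 passed without library 2, at -0.85 ± 0.24 (adjusted p = 0.018).

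Transcripts of thymic development split between directions. Of 17 recent emigrant and thymic genes tested, 3 were higher and 4 lower with all libraries (median -0.14), and 3 were higher and 6 lower without library 2 (median -0.34). All genes tested gave 3.98% higher and 3.95% lower, and without library 2, 5.98% and 5.14%. Sox4, a factor of immature T cells, held 6.04, 5.75, 1.8, 0 and 0 CPM in labeled and 54.5, 3.58, 74.6, 49.5 and 50.8 CPM in post-tamoxifen libraries. It was low in all labeled libraries and in library 2, and at 49.5 to 74.6 CPM in the other 4 (-3.94 ± 0.82, adjusted p = 0.0027, and -4.23 ± 0.75 without library 2, adjusted p = 2.5e-04). Itm2a, a membrane protein induced at thymic selection, held 29.8, 26.1, 36.1, 15.8 and 19.2 CPM against 67.2, 22.1, 94, 73.4 and 74.2 CPM (-1.36 ± 0.33, adjusted p = 0.0074, and -1.58 ± 0.29 without library 2). Themis, a T cell receptor signalling protein of thymocytes, held 158, 141, 106, 136 and 122 CPM against 278, 266, 214, 221 and 212 CPM, without overlap (-0.83 ± 0.15, adjusted p = 8.0e-04, and -0.77 ± 0.16 without library 2). With the myeloid term the Itm2a call was lost (-1.54, adjusted p = 0.0502), and the level of Themis correlated at 0.54 with the myeloid sum in the Uhrf1fl/fl libraries described below. Gnaq, a G protein alpha subunit on the same list, went the other way, at 87.6, 81.2, 63.6, 82.7 and 83.7 CPM against 10.1, 48.5, 27.8, 22 and 23.8 CPM (1.499 ± 0.24, adjusted p = 2.6e-04, and 1.85 ± 0.24 without library 2).

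Myb, a factor of progenitor and resting lymphocytes with the GC-rich promoter shown above, held 44.2, 31.8, 32.5, 30.4 and 41.9 CPM in labeled and 178, 45.5, 187, 151 and 168 CPM in post-tamoxifen libraries. Library 2 lay just above the labeled range and far below the other 4, and the difference was -2.01 ± 0.26 (adjusted p = 2.0e-05) with it and -2.23 ± 0.19 without it (adjusted p = 1.2e-10). Adcy6, an adenylate cyclase, held 15.1, 8.43, 13.5, 10.8 and 12.2 CPM against 57.1, 23.1, 113, 96.1 and 89.3 CPM (-2.66 ± 0.48, adjusted p = 8.4e-04, and -2.88 ± 0.45 without library 2). Myo10, an unconventional myosin, held 9.81, 7.66, 6.77, 6.93 and 14.8 CPM against 112, 20.2, 46.4, 46.6 and 78.3 CPM (-2.72 ± 0.37, adjusted p = 2.5e-05, and -2.94 ± 0.34 without library 2). Pde3b, a cyclic nucleotide phosphodiesterase that Foxp3 represses, held 39.3, 28.7, 30.7, 25.4 and 24.4 CPM against 180.1, 62.8, 61.1, 133 and 125 CPM (-1.87 ± 0.44, adjusted p = 0.0077, and -2.01 ± 0.46 without library 2). The Pde3b call was lost with the myeloid term (-1.11, adjusted p = 0.19). The kinase gene Sgk3 differed by -1.91 ± 0.36 (adjusted p = 7.8e-04) and Gtf2ird1 by -1.88 ± 0.34 (adjusted p = 6.0e-04).

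**Figure D3:**
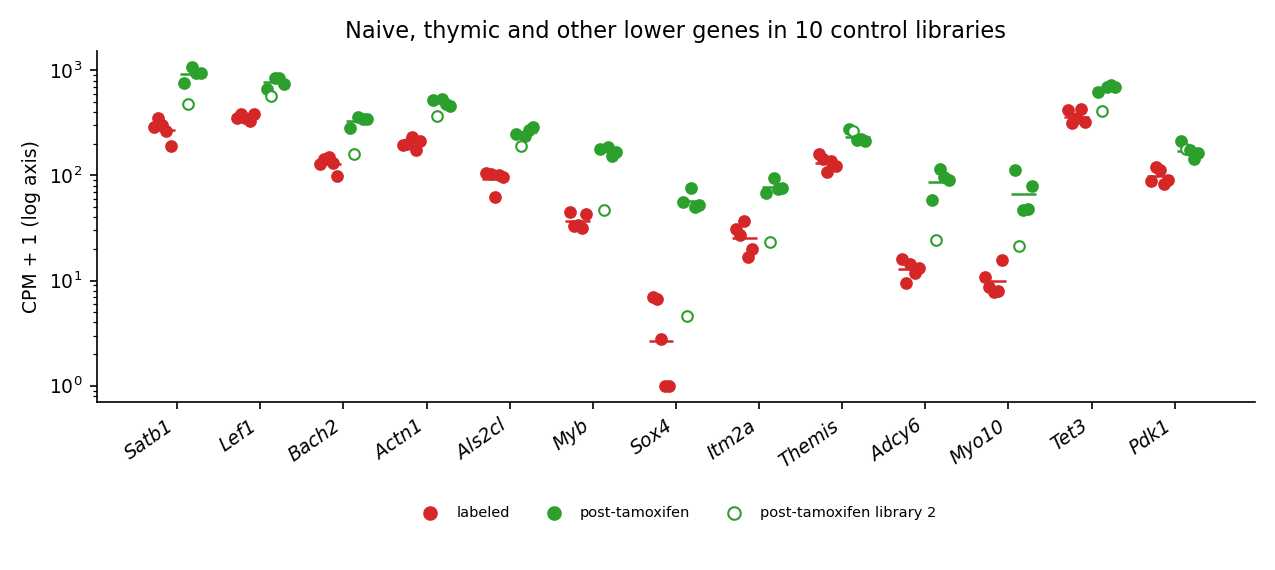
CPM + 1 on a log axis for 13 genes that were lower in labeled cells, in each of the 10 control libraries, with the same symbols and lines as the plot of Treg genes. Post-tamoxifen library 2 (open circle) lies close to the red points for Sox4, Itm2a and Myb and between the groups for Satb1, Lef1 and Bach2.

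Myeloid transcripts were more abundant in the post-tamoxifen libraries other than 2, and markers of other cell types are kept apart from the T cell genes. The summed level of 34 myeloid markers was 423 to 518 CPM in labeled libraries, 1208 to 3009 CPM in post-tamoxifen libraries other than 2, and 440 CPM in library 2. Of 29 myeloid markers tested, 20 were called lower in labeled cells and 0 higher, with a median of -3.51. Without library 2, 24 of 30 were lower and 1 was higher, the oxidase gene Cybb, named after its values were seen. Hmox1, the haem-degrading enzyme of red pulp macrophages, held 12.5, 11.9, 13.1, 13.5 and 9.6 CPM against 247, 15, 108, 115 and 117 CPM (-3.24 ± 0.54, adjusted p = 5.1e-04, and -3.52 ± 0.45 without library 2). Vcam1, an adhesion molecule of macrophages and stroma, held 17, 13.4, 10.8, 3.85 and 7.85 CPM against 270.1, 8.78, 115, 104 and 218 CPM (-3.68 ± 0.65, adjusted p = 8.4e-04, and -3.98 ± 0.54 without library 2), and Apoe, a lipid carrier, 19.2, 13.8, 9.47, 12.7 and 15.7 CPM against 339.9, 12, 100.8, 94.7 and 124 CPM (-3.17 ± 0.64, adjusted p = 0.0025, and -3.47 ± 0.56 without library 2). Lyz1, Cd14, Fcgr1, Fcgr3, S100a8 and S100a9 had 0 counts in all labeled libraries, and 3 of the 34 markers had 0 counts in all post-tamoxifen libraries.

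The 22 B and plasma cell markers summed to 171 to 197 CPM in labeled libraries, 270 to 732 CPM in post-tamoxifen libraries other than 2, and 113 CPM in library 2. Of 12 tested, 3 were called lower and 0 higher, all of them class II genes that dendritic cells and macrophages also express. H2-Ab1 held 3.77, 5.75, 3.61, 6.93 and 2.62 CPM against 88.8, 2.6, 25.4, 20.2 and 36.2 CPM (-2.75 ± 0.73, adjusted p = 0.017, and -3.06 ± 0.66 without library 2). That call was lost without post-tamoxifen library 1 (-2.13). Cd74, the class II invariant chain, differed by -0.98 ± 0.52 (adjusted p = 0.3). Ebf1 and Ly6d, markers of B cells, had 0 counts in all labeled libraries.

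Genes outside the marker lists moved with the myeloid sum as well. Across the 18 libraries of Uhrf1fl/fl mice, after removal of group means, the correlation of a gene's log2 level with the log2 myeloid sum was above 0.5 for 10.9% of all genes tested, for 26 of 29 myeloid markers and for 81 of the 367 genes called lower off the lists of other cells (22.1%). It was above 0.5 for 2 of the 30 naive T cell genes, whose median was -0.55, and for 18.7% of the genes called higher. These points share libraries and depth and are given as a description. Lrp1, a scavenger receptor, held 10.6, 7.28, 4.96, 2.69 and 18.3 CPM in labeled and 271, 9.11, 92.8, 82 and 219 CPM in post-tamoxifen libraries (-4.02 ± 0.72, adjusted p = 8.6e-04, and -4.33 ± 0.62 without library 2). Sdc3, a syndecan, held 10.9, 11.1, 16.2, 3.46 and 7.85 CPM against 186, 12, 86.5, 78.1 and 105 CPM (-3.17 ± 0.58, adjusted p = 0.0011, and -3.46 ± 0.51 without library 2). Both had the layout of Hmox1, with library 2 at the labeled level.

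With the log2 myeloid sum as a term in the fit, 458 genes were called and 303 of the 787 calls remained. In the controls this sum nearly followed the label, at 423 to 518 CPM in labeled and 1208 to 3009 CPM in most post-tamoxifen libraries. The exception, at 440 CPM, was library 2, which goes against its sort label. The term therefore cannot separate myeloid transcripts from the label itself, and the source of a lost call was not tested. Of the genes named here off the marker lists, Ikzf2, Batf, Tox2, Sh2d1a, Ttn, Naip6, Abcb1a, Pde3b, Itm2a, Ly6e, Ier5, Lrp1 and Sdc3 lost their call, as did Eomes, and so did the markers Vcam1, Apoe and H2-Ab1. In that fit 18 of 30 naive T cell genes were lower (median -1.05), 13 of 34 effector Treg genes were higher (median 1.198) and 8 of 31 Treg core genes were higher (median 0.24). Of the myeloid markers, 1 of 29 was lower, but the term is built from these same markers, so that count was largely fixed in advance. In the fit of all libraries without that term, 1 of 10 CD4 T cell identity genes was called lower and 0 higher. Cd4 held 775 to 871 CPM in labeled and 729 to 875 CPM in post-tamoxifen libraries other than 2 (-0.06 ± 0.09, adjusted p = 0.76, and 0.06 ± 0.09 without library 2).

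**Figure D4:**
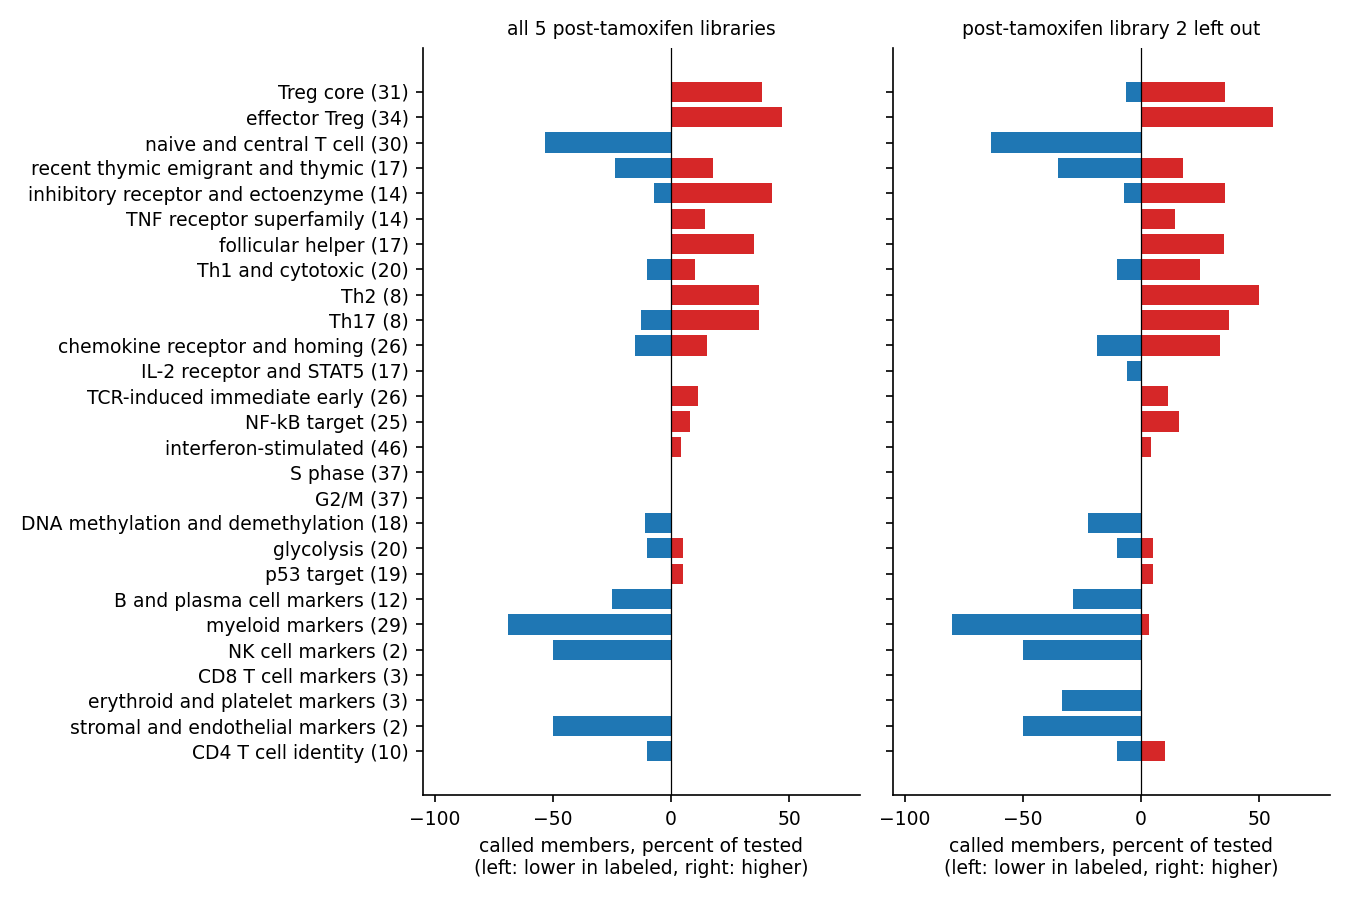
Members called higher (right, red) or lower (left, blue) in labeled cells as a percentage of the members tested in each gene list, with all libraries (left panel) and without post-tamoxifen library 2 (right panel). Numbers in brackets are members tested with all libraries; effector Treg genes lie to the right, naive T cell genes and myeloid markers to the left.

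Cell cycle genes were high in some libraries of both groups. None of 37 S phase and none of 37 G2/M genes was called by edgeR with all libraries and no replicate block, although the G2/M median was 0.86. At an unadjusted p under 0.05 there were 2 S phase genes and 0 G2/M genes. With a replicate block in the fit, 3 S phase and 4 G2/M genes were called higher and 0 lower. The G2/M sum was 1555, 2148, 2497, 439 and 458 CPM in labeled and 2199, 605, 907, 350.0 and 306 CPM in post-tamoxifen libraries, so that libraries 4 and 5 were low in both groups. With the myeloid term in the fit, 6 of 37 G2/M genes (median 2.77) and 5 of 37 S phase genes (median 1.03) were called higher and 0 lower. That fit holds all 33 pulse-chase libraries. In post-tamoxifen Uhrf1fl/fl libraries 1 to 6 the myeloid sum was 1611, 1463, 3653, 677, 992 and 671 CPM. Their G2/M sum was 6031, 4536, 7535, 496, 726 and 816 CPM. The term therefore cannot separate myeloid transcripts from cell cycle differences there, and the source of these calls was not tested. Mki67, a marker of cycling cells, held 510.3, 725, 903, 155 and 152 CPM against 669.6, 224, 281, 99 and 93.4 CPM (0.91 ± 0.78, adjusted p = 0.58, and 0.88 ± 0.86 without library 2), and without post-tamoxifen library 1 its difference was 1.49 (adjusted p = 0.34). Top2a, a topoisomerase of dividing cells, differed by 0.82 ± 0.79 (adjusted p = 0.63) and by 1.42 without that library (adjusted p = 0.37). Uhrf1, the cofactor of maintenance DNA methylation that the other genotype lacks after recombination, held 59.3, 63.2, 104, 15.4 and 11.3 CPM against 59.6, 22.1, 36.5, 17.7 and 13.7 CPM (0.90 ± 0.66, adjusted p = 0.5, and 0.84 ± 0.72 without library 2). Like the G2/M sum, it was lowest in libraries 4 and 5 of both groups.

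Of 18 genes of DNA methylation and demethylation, 0 were higher and 2 lower (median -0.04), and without library 2, 4 were lower (median -0.03). Over all genes tested, 3.95% were lower with all libraries and 5.14% without library 2. Tet3, an enzyme that oxidises methylcytosine, held 422, 315, 349, 424 and 318 CPM in labeled and 620.1, 405, 698, 728 and 689 CPM in post-tamoxifen libraries (-0.78 ± 0.12, adjusted p = 9.9e-05, and -0.88 ± 0.11 without library 2). The groups overlapped through library 2. Tet1, of the same family, held 33.2, 21.5, 22.1, 21.5 and 14 CPM against 44.4, 42.6, 63.1, 41.9 and 44.4 CPM, without overlap (-1.05 ± 0.25, adjusted p = 0.006, and -1.07 ± 0.26 without library 2). The de novo methyltransferase gene Dnmt3a passed without library 2, at -0.46 ± 0.12 (adjusted p = 0.01), and the maintenance gene Dnmt1 differed by 0.07 ± 0.19 (adjusted p = 0.89).

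Signalling lists are set beside the shares of all genes tested, 3.98% called higher and 3.95% lower with all libraries. None of 17 IL-2 receptor and STAT5 genes was called by edgeR with all libraries (median 0.08, with 3 at an unadjusted p under 0.05). Of 26 immediate early genes 3 were higher and 0 lower (median 0.02), and of 25 NF-kB targets 2 were higher and 0 lower (median 0.19). Without library 2, where 5.98% of all genes were higher and 5.14% lower, the counts of the 3 lists were 0 higher and 1 lower, 3 and 0, and 4 and 0. Ier5, an immediate early gene, rose by 0.51 ± 0.12 (adjusted p = 0.0062). Of 46 interferon-stimulated genes, 2 were higher and 0 lower (median -0.01). They were Gbp3, an interferon-induced GTPase with near-identical relatives, at 131, 159.8, 157, 128 and 153 CPM against 76.1, 94, 65.1, 54.6 and 61.4 CPM (1.06 ± 0.14, adjusted p = 1.3e-05, and 1.22 ± 0.15 without library 2), and Ly6e, a membrane protein, at 0.48 ± 0.11 (adjusted p = 0.0038). Of 20 glycolysis genes, 1 was higher and 2 lower. Aldoa, a glycolytic aldolase, rose by 0.67 ± 0.14 (adjusted p = 0.002), and Pdk1, a kinase that holds pyruvate out of mitochondria, fell from 212, 176, 172, 143 and 162 CPM in post-tamoxifen to 87.6, 119.9, 113, 81.6 and 89 CPM in labeled libraries (-0.80 ± 0.15, adjusted p = 7.7e-04, and -0.77 ± 0.16 without library 2).

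The same comparison in Uhrf1fl/fl mice called 454 genes (4.58%), 178 higher (1.79%) and 276 lower (2.78%). It kept post-tamoxifen Uhrf1fl/fl library 3, which held 128 CPM of Foxp3 against 287 to 458 CPM in the others of its group. That library also had the highest myeloid sum of its group, 3653 CPM. Of 29 myeloid markers, 23 were called lower in these mice, so the shared signs below include genes of other cell types. Of the 787 genes called in controls, 737 had the same sign there and 272 were also called with it, and 5874 of all 9921 tested genes had the same sign. Il1rl1 differed by 1.35 ± 0.41 in those mice (adjusted p = 0.054), Tigit by 1.27 ± 0.32 (adjusted p = 0.018), Bach2 by -1.27 ± 0.24 (adjusted p = 0.0023) and Sox4 by -5.34 ± 1.06 (adjusted p = 0.0032). A test of the difference between genotypes called 2 of 9921 genes (0.0202%), while 767 had an unadjusted p under 0.05, and DESeq2 also called 2. Gbp1, an interferon-induced GTPase outside the naming rule and chosen after its values were seen, held 7.93, 9.2, 9.02, 10.4 and 17.4 CPM in labeled and 1.27, 3.25, 2.38, 0.723 and 3.2 CPM in post-tamoxifen control libraries (2.19 ± 0.56) and went the other way in Uhrf1fl/fl mice (-1.64 ± 0.45), a gap of -3.83 ± 0.72 (adjusted p = 0.02). Gbp3 differed by 1.06 ± 0.14 in controls and -0.0012 ± 0.12 in Uhrf1fl/fl mice, a gap of -1.06 ± 0.19 (adjusted p = 0.014).

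Without post-tamoxifen control library 2, the genotype test called 16 of 10020 genes (0.16%), 15 of them with a lower difference in Uhrf1fl/fl mice (0.15%) and 1 with a higher one (0.00998%). Ttc39c, a little-studied gene, held 75.9, 73.2, 88.9, 72.3 and 113 CPM in labeled and 13.9, 45.5, 1.98, 15.5 and 12.8 CPM in post-tamoxifen control libraries, and its gap was -1.87 ± 0.38 (adjusted p = 0.024). The gene with a higher value was Myb, which fell less in Uhrf1fl/fl mice (-1.05 ± 0.23) than in controls, a gap of 1.19 ± 0.25 (adjusted p = 0.02).

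**Figure D5:**
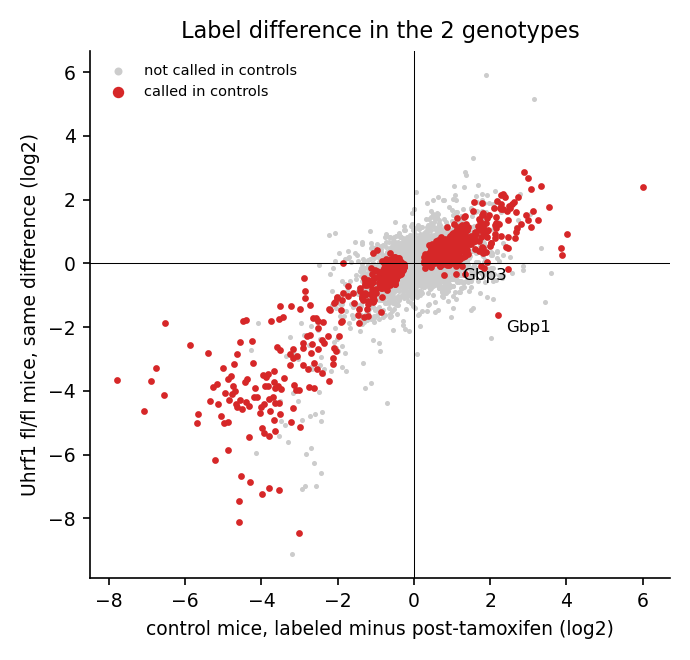
Log2 difference between labeled and post-tamoxifen cells in control mice (horizontal) and in Uhrf1 fl/fl mice (vertical) for the 9921 genes tested, with the 787 genes called in controls in red. Of the red points, 737 have the same sign on both axes; Gbp1 and Gbp3 are the genes whose difference between genotypes passed the test.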

How the data were processed

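Per the labels' protocols, sorted cells gave RNA through the AllPrep DNA/RNA Micro Kit, and sequencing libraries came from the SMARTer Stranded Total RNA-Seq Kit v2. The submitters' processing notes name bcl2fastq 2.17.1.14, TopHat2 2.1.0 and mm10 (GRCm38). The authors deposited raw counts, whole numbers without normalization, in 19434 table entries for 41 libraries. Annotation, counting and strand settings are not given in the sources used here, so a gene and its antisense partner may share reads.

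Counts of all 33 pulse-chase libraries (6 groups) entered 1 edgeR 4.0.16 model (R 4.3.3) with TMM scaling, edgeR's own low-count filter and robust quasi-likelihood F-tests, 2-sided, adjusted by Benjamini-Hochberg over all genes at 0.05. The common biological coefficient of variation was 0.215. The model was refitted without post-tamoxifen control library 2. The test was checked on simulated counts in which 100 genes changed 2-fold and 100 changed 4-fold in the labeled control group. It recovered 80 and 96 of them, with 11 false calls. Those counts held no carry-over and no library against its label, so the check does not cover these features. The closest libraries of a group still differed by more than counting noise (chi-square per degree of freedom 2.87). DESeq2 1.42.0, other scalings and filters, a replicate block, marker terms and left-out libraries were alternatives. Log2 levels for correlations were edgeR's log CPM with a prior count of 2. Whether the replicates of a group came from separate mice is stated only as biological replicates.

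The members and gene lists were chosen with earlier results of these data known. Genes were named by a rule: Foxp3 and Uhrf1; in each fit, the 12 largest called changes per direction where log2 CPM averaged 4 or more, without predicted genes, pseudogenes, receptor segments, histone, mitochondrial, ribosomal or other-cell genes; from each T cell list, up to 4 called members by p and the 2 most abundant uncalled; and the 4 most abundant myeloid and B cell markers. The rule gives 126 genes, of which the text names some. Called lower on the marker lists not described in the text were 0 of 3 CD8, 0 of 3 erythroid and 1 of 2 stromal genes. Called higher were 1 of 19 p53 targets, 2 of 14 TNF receptor genes and 6 of 14 inhibitory receptor genes, the last with 1 lower. Promoters were matched by symbol, chromosome, strand and a start within 1000 bases.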

Additional observations from a re-analysis of the deposited data

Results flagged for a closer look

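A library was singled out where its gap to the nearest other library of its group, divided by the group's range, exceeded Dixon's limit for 5 libraries. Chance would single out about 1 in 20 independent groups, and here 27 of 166 were singled out. Some of the genes were named through the fit without post-tamoxifen library 2, and genes of a library can move together. The 27 therefore cannot be weighed against that rate and are a description. In post-tamoxifen library 2 this held for Nrp1 (545 CPM), Il1rl1 (62.5), Klrg1 (15.9), Fgl2 (49.1), Rora (209.5), Icos (155), Sh2d1a (50.1), Ttn (1665), Nav2 (192), Plcb4 (74.2), Abcb1a (96.3), Arrdc4 (26.7), Stat4 (188), Itgb1 (1709) and Itga4 (2129.8), where it was highest, and for Myb (45.5), where it was lowest. In post-tamoxifen library 1 it held for Eomes (38.0 CPM, highest) and in library 3 for Tet1 (63.1, highest).

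Among labeled libraries it held for Rora in library 2 (262 CPM), Als2cl (60.9) and Gnaq (63.6) in library 3, Stat4 in library 4 (222), and Gbp1 (17.4), Ier5 (268) and Cd4 (775) in library 5. The B and plasma cell marker sum was highest in labeled library 4 (197 CPM against 171 to 174 in the others), and the total count was lowest in labeled library 5 (1153730).

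The label difference differed between genotypes, by the test of the difference itself, for Gbp1 (-3.83 ± 0.72, Uhrf1fl/fl minus control, on the log2 scale) and Gbp3 (-1.06 ± 0.19).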

How the results depend on the processing

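Calls between labeled and post-tamoxifen control cells numbered 787 as reported and 787 with DESeq2's size factors, 792 unscaled, 672 with a stricter count filter, 716 with none and 918 with DESeq2. They numbered 493 in the 10 libraries alone, 506 without numbers 2 and 3, 249 with numbers 4 and 5 alone, 18 with numbers 1 to 3 alone, 458 with the myeloid term and 1033 without post-tamoxifen libraries 1 and 2, a setting chosen after seeing the data. Leaving out 1 library gave 491 (without post-tamoxifen library 3) to 1114 (without library 2), and 520 without library 5. The cause of these shifts was not tested.

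Deviations from the group means did not show that replicate numbers pair the samples. Same-numbered deviations correlated at 0.10, -0.02, 0.14, 0.25 and 0.15, and labeled libraries 2 and 3 correlated best with another number. The Y-linked transcripts did match by number: they were present in libraries 2 and 3 of both groups and of the ex-Foxp3 cells (434 and 370 CPM). The labels do not say whether same-numbered libraries came from the same mouse. With the replicate block 1280 genes were called, and 1458 with number 2 left out of both groups. With the block 4 of 37 G2/M and 3 of 37 S phase genes were called higher and 0 lower, against 0 and 0 without it. In the 10 libraries alone with the block, the calls of Klrg1, Tigit, Maf, Ttn, Naip6, Ttc39c, Abcb1a, Sox4, Hmox1, Vcam1, Apoe, H2-Ab1 and Sdc3 were lost. Calls of the genotype difference went from 2 to 6 with the block, 16 without post-tamoxifen control library 2, 14 without Uhrf1fl/fl post-tamoxifen library 3 as well, and 119 with the block and without library 2. The last 2 settings were added after seeing the data.

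Over 78 genes and up to 26 alternatives each, 1813 values kept direction and side of the threshold, 127 lost the call, 62 gained it and 26 changed sign. Sign changes were all in genes not called. Foxp3 went to -0.14 in the 2 groups alone without library 2, -0.097 with number 2 out and a replicate block, -0.049 in numbers 4 and 5, -0.019 without numbers 2 and 3, -0.095 with the myeloid term, -0.052 with the B cell term and -0.20 without libraries 1 and 2. Il2rb went to -0.052, -0.15, -0.0043, -0.050, -0.056 and -0.18 in the same settings except the block. Cd4 went to 0.042 in the 2 groups alone, 0.042 with the block and 0.094 without libraries 1 and 2. With 1 library left out, Foxp3 ran from -0.121 to 0.254, Il2rb from -0.0319 to 0.197 and Cd4 from -0.124 to 0.0608. Il2ra went to 0.047 in numbers 1 to 3, Uhrf1 to -0.19 in numbers 4 and 5, and Dnmt1 to -0.074 and Top2a to -0.096 without numbers 2 and 3. Cd74 went to 1.23 with the myeloid and 0.14 with the B cell term. Post-tamoxifen library 1, with 781437 counts, has the least precise levels, and at its depth a count of 0 does not show that a transcript is absent.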
